A study of Mus musculus with 4 samples.

Results

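Extracellular nucleotide signalling was examined in 4T1 cells through 8 genes: the P2Y receptor genes P2ry1, P2ry2, P2ry6 and P2ry14, the P2X receptor genes P2rx4 and P2rx7, and the ecto-nucleotidase genes Entpd1 and Nt5e. They were taken by gene symbol out of 21840 genes, and the set was selected on the normalized counts of P2ry6, which were higher after IL-17A than after PBS, so the differences between treatments in these genes are given as a description and not as a test. Values were at hand for 6 of the 8, and P2ry1 and Entpd1 were not analysed here. 4T1 is a mouse mammary carcinoma cell line, labelled epithelial and wild type, and it was cultured either with recombinant IL-17A (rIL17, 2 libraries) or with phosphate-buffered saline (PBS, 2 libraries). The sources used here state neither the dose nor the duration. RNA was measured by sequencing, with 17511450 to 17970104 reads assigned to genes per library, and the values are normalized counts, which are reads divided by 1 size factor per library. The labels do not state that replicate libraries are separate cultures, and the spread between them, which the p-values rest on, may be technical.

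Cells release ATP and UTP when they are stressed or damaged, and neighbouring cells sense these nucleotides and their breakdown products through purinergic receptors. P2Y receptors are G protein-coupled and answer to different nucleotides: P2Y1 to ADP, P2Y2 to ATP and UTP, P2Y6 to UDP and P2Y14 to UDP and UDP-sugars. P2X receptors are cation channels opened by ATP, and P2X7 needs high ATP and is linked to inflammasome activation in macrophages. CD39, encoded by Entpd1, degrades ATP and ADP to AMP, and CD73, encoded by Nt5e, turns AMP into adenosine, which acts on adenosine receptors and dampens immune cells in tumors.

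The promoters of P2ry2 and P2rx7 are shown because these were, after P2ry6, the genes whose levels differed most between the treatments. RefSeq promoter windows on GRCm38.p6, from 250 bases before to 50 bases after an annotated start, were matched by symbol for 7 of the 8 genes. P2ry6 was not matched. The window of P2ry2 is chr7:101012004-101012303 on the minus strand and that of P2rx7 is chr5:122643677-122643976 on the plus strand, each the start farthest upstream of 2 in the table. Capitals mark matches on either strand to a C/EBP motif (TTNCNNAA) or an AP-1 motif (TGANTCA), and the matches do not overlap each other. A kB motif was searched too.
P2ry2: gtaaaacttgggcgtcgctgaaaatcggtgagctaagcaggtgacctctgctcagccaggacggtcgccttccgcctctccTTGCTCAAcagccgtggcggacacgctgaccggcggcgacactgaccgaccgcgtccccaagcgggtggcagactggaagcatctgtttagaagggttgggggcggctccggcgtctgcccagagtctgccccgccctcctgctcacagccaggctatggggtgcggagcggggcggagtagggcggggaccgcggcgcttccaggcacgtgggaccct
P2rx7: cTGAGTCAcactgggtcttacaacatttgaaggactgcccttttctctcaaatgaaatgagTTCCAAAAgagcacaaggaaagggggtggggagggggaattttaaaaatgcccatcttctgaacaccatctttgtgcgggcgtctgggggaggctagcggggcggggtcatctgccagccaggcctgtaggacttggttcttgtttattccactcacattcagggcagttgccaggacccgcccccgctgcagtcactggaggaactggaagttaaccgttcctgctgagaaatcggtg
The P2ry2 window held 1 C/EBP match, TTGCTCAA, beginning 169 bases before the start. The P2rx7 window held 1 AP-1 match, TGAGTCA, beginning 249 bases before the start, and 1 C/EBP match, TTCCAAAA, beginning 189 bases before it. Neither held a kB match. Over all 32851 windows of this length, 40.7% held a C/EBP match, 7.81% an AP-1 match and 8.46% a kB match, so a C/EBP match is common. These matches describe letters only and do not show binding.

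P2ry6, the UDP receptor gene (ENSMUSG00000048779, mm10 chromosome 7, 100937630 to 100974649, minus strand), had 95.5 and 142 normalized counts in the rIL17 libraries, against 18.6 and 15.9 in the PBS libraries. Both rIL17 libraries lay far above both PBS libraries, and the rIL17 libraries differed more from each other than the PBS libraries did. The means were 119 ± 33.2 in rIL17 and 17.3 ± 1.93 in PBS (SD, n = 2 each), a ratio of 6.89. On the scale of log2(normalized count + 1) the difference was 2.69 (SE 0.28). This is the value that chose the set. The PBS values rest on 19 and 16 reads and the rIL17 values on 95 and 142 reads.

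P2ry2, the receptor gene for ATP and UTP (ENSMUSG00000032860, chromosome 7, 100996568 to 101012866, minus strand), had 264 and 261 normalized counts in the rIL17 libraries, against 150.1 and 151 in the PBS libraries. The libraries of each group were nearly equal and the groups did not overlap. The means were 263 ± 2.57 in rIL17 and 151 ± 0.731 in PBS (SD, n = 2 each), a ratio of 1.74, and the log2 fold change was 0.80 (SE 0.08). These values rest on 263 and 260 reads in rIL17 and 153 and 152 in PBS. Near equality of 2 libraries does not measure how precise the values are. P2ry14, the receptor gene for UDP-sugars (chromosome 3), had 1.01 and 1.00 normalized counts in the rIL17 libraries, against 0 and 1.99 in the PBS libraries. At 0 to 2 reads a library it lay under the floor of 3 reads used for a count of 0, so no fold change is given. Gm44545, a gene model of unproven status, overlaps P2ry6 on the other strand and shares 0 exon bases with it. Of the 50-base windows of the P2ry6 and P2ry2 transcripts, 0 occurred in a transcript of another gene. The shares that did were 1.63% for P2rx4, 1.17% for P2rx7, 0.128% for Nt5e and 0.00897% for P2ry14.

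**Figure D1:**
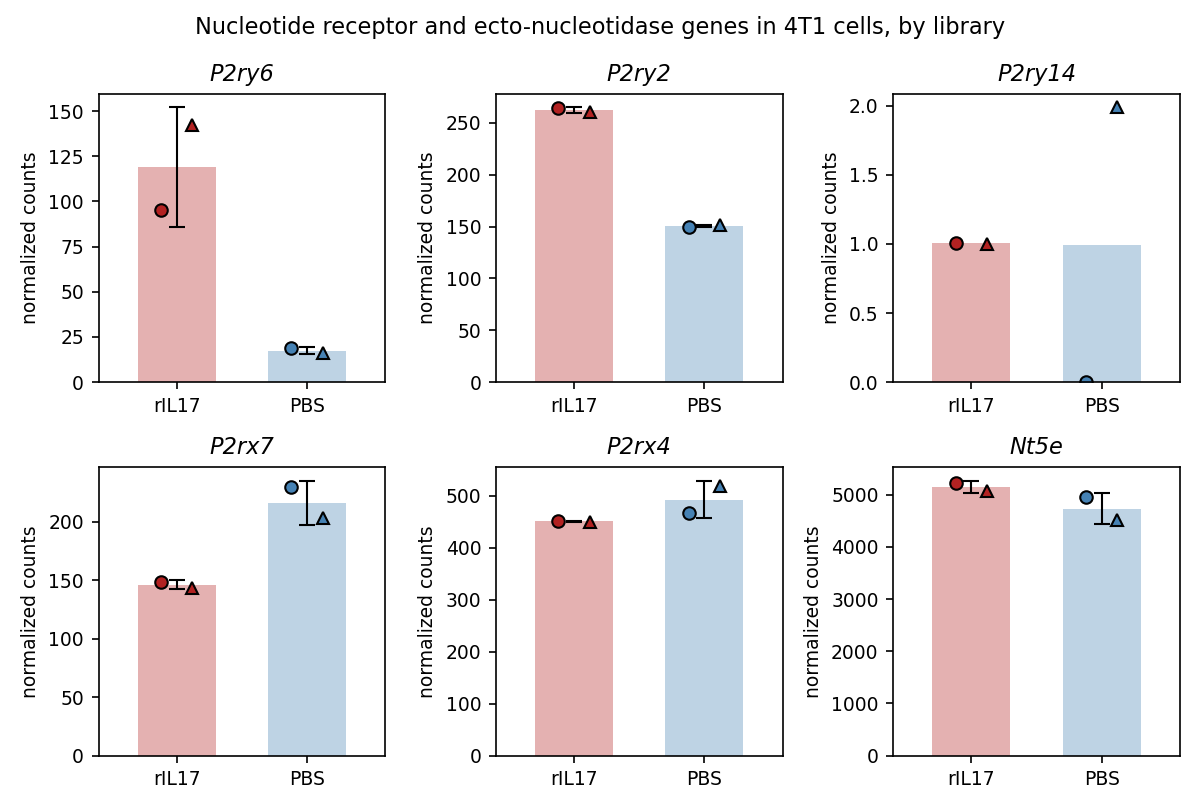
Normalized counts (y axis, from 0) of the 6 measured genes in the rIL17 and PBS libraries; bars are means, error bars are SD (n = 2 each, omitted for P2ry14) and circles and triangles are replicates 1 and 2. The rIL17 points of P2ry6 (95.5 and 142) and P2ry2 (264 and 261) stand above the PBS points, those of P2rx7 (149 and 143) stand below them, and P2ry14 is near 0 throughout.

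P2rx7, encoding the ATP-gated channel P2X7 (ENSMUSG00000029468, chromosome 5, 122643911 to 122691432, plus strand), had 149 and 143 normalized counts in the rIL17 libraries, against 229.6 and 203 in the PBS libraries. The rIL17 libraries were the lower ones, with no overlap. The means were 146 ± 3.79 in rIL17 and 216 ± 18.9 in PBS (SD, n = 2 each), a ratio of 0.676, and the log2 fold change was -0.56 (SE 0.11). P2rx4, encoding a more ATP-sensitive channel that is found largely on lysosomes (ENSMUSG00000029470, chromosome 5, 122707544 to 122729738, plus strand), had 451 and 449 normalized counts in the rIL17 libraries, against 467 and 518 in the PBS libraries. The groups did not overlap but the gap between them was smaller than the distance between the PBS libraries. Its log2 fold change was -0.13 (SE 0.08), and -0.05 without PBS replicate 2. Mir8115, a miRNA gene annotated on the same strand, shares 119 exon bases with P2rx7 out of its 5970, so reads there cannot be assigned to one of them.

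Nt5e, encoding CD73, the enzyme that makes adenosine from AMP (ENSMUSG00000032420, chromosome 9, 88327197 to 88372092, plus strand), was the most abundant of the genes. It had 5232 and 5066 normalized counts in the rIL17 libraries, against 4947 and 4523 in the PBS libraries. The rIL17 libraries lay above the PBS libraries by less than the distance between the PBS libraries. The means were 5149 ± 118 in rIL17 and 4735 ± 300.1 in PBS (SD, n = 2 each), a ratio of 1.09. The log2 fold change was 0.12 (SE 0.06), and 0.06 without PBS replicate 2.

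In all, 3 of the 6 measured genes had the rIL17 libraries above the PBS libraries without overlap, 2 had them below and 1 overlapped. Of all 20677 genes tested, 25.4% were higher in this way and 20% lower. Because the set was chosen in this same contrast, nothing is read from its share. In limma over all genes tested, with Benjamini-Hochberg adjustment, 0 of the 6 were called at an adjusted p below 0.05, where 0% of all genes were called; at an unadjusted p below 0.05 there were 3 of the 6 and 12.8% of all genes, and limma-voom called 0 of the 6 and 0.00484% of all genes. When genes had to reach 10 normalized counts in both rIL17 libraries or in both PBS libraries (a stricter filter), limma called 1 of the 5 that passed, P2ry6, and 0.734% of 13482 genes. That call of P2ry6 was lost without rIL17 replicate 1 and without rIL17 replicate 2, where 0 genes were called in all. Other settings called P2ry6 with GC correction (0.378% of all genes called), and P2ry6 and P2ry2 with robust shrinkage (1.3%), with the replicate block and GC correction together (2.41%) and with robust shrinkage under the stricter filter (1.12%). With all 4 libraries the SE of P2ry2 depended on the setting. It ran from 0.07 with a pseudocount of 0.1 to 0.16 with the replicate block and GC correction together.

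**Figure D2:**
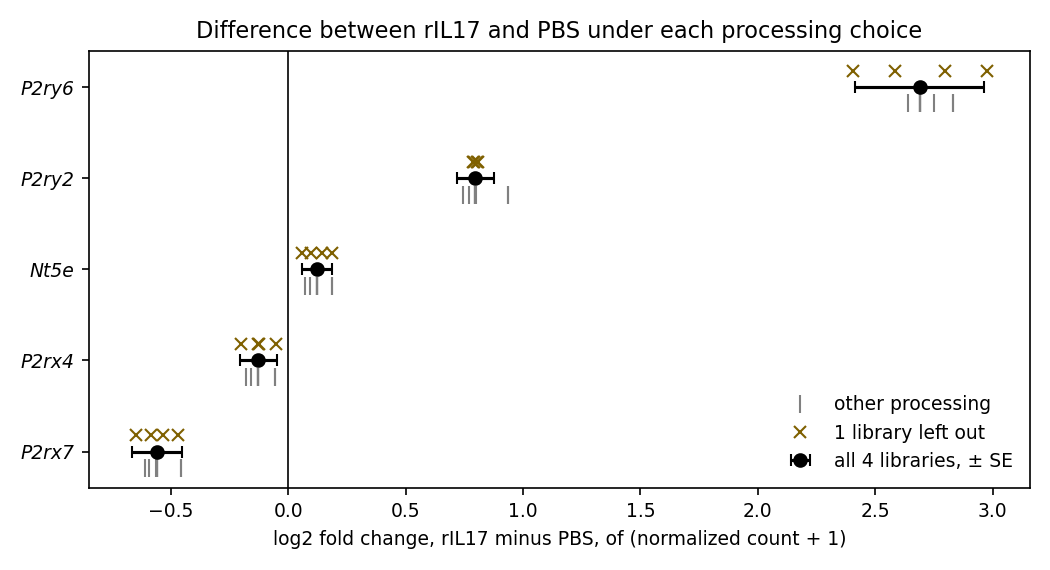
Log2 fold change of log2(normalized count + 1), rIL17 minus PBS (x axis), for the 5 genes above the floor; black points are the values from all 4 libraries with SE, crosses leave out 1 library each and grey ticks use other processing. P2ry6 stays between 2.40 and 2.98, P2ry2 between 0.75 and 0.94, Nt5e between 0.06 and 0.19, P2rx4 between -0.20 and -0.05 and P2rx7 between -0.65 and -0.46.

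Levels of different genes were compared as normalized counts per kb of annotated exon. In PBS the order was Nt5e at 550.4 per kb, P2rx4 at 70.1, P2ry2 at 38.4, P2rx7 at 36.2, P2ry6 at 5.98 and P2ry14 at 0.0899. P2ry2 and P2rx7 did not differ beyond the spread of their PBS libraries, since P2rx7 ran from 34.0 to 38.5 and P2ry2 from 38.2 to 38.5 per kb. Per kb of the longest transcript their PBS libraries did not overlap, at 49.9 and 50.2 for P2ry2 and 46.5 and 41.1 for P2rx7. In rIL17 P2ry6 reached 33.1 and 49.3 per kb, above P2rx7 at 24.9 and 24.0, whereas in PBS it stood at 6.46 and 5.51, below P2rx7 at 38.5 and 34.0. P2ry2 reached 66.9 per kb in rIL17, against 38.4 in PBS, and stood next to P2rx4 at 64.1 per kb in rIL17, against 70.1 in PBS. The order of P2ry2 and P2rx4 in rIL17 turned with the length used: per kb of the longest transcript they had 87.2 and 116. Of the genes tested, 52% had a lower level per kb than P2ry6 in rIL17, against 32.8% in PBS, and 92% had a lower level than Nt5e in rIL17, against 91.3% in PBS.

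**Figure D3:**
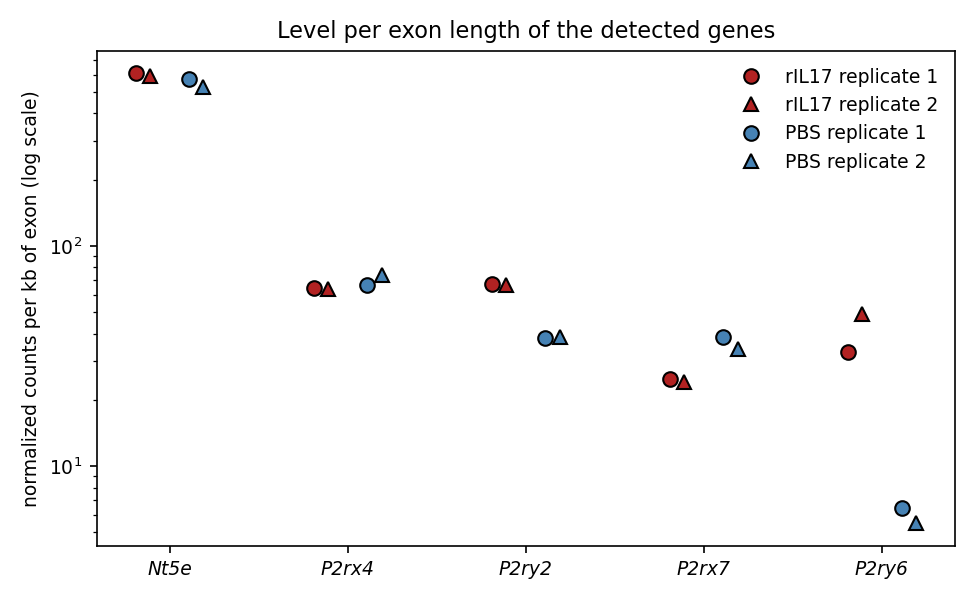
Normalized counts per kb of exon (y axis, log scale) in each library for the 5 genes above the floor, ordered by their PBS level; red is rIL17, blue is PBS, circles and triangles are replicates 1 and 2. P2ry6 is the lowest gene in PBS (6.46 and 5.51) and lies above P2rx7 in rIL17 (33.1 and 49.3 against 24.9 and 24.0).

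The measured P2Y genes of chromosome 7 are neighbours, as are the P2X genes of chromosome 5. P2ry6 and P2ry2 lie on the same strand with 21.9 kb between them, and P2rx7 and P2rx4 lie on the same strand with 16.1 kb between them. Arhgef17 lies 5.5 kb to the other side of P2ry6 and had 3534 and 3655 normalized counts in rIL17, against 2853 and 2805 in PBS (log2 fold change 0.35, SE 0.04, limma adjusted p = 0.369). Within 250 kb of the start of P2ry6, 5 genes had a mean of at least 10 normalized counts in 1 group. In all 5, P2ry6 itself included, the rIL17 libraries lay above the PBS libraries. The same held for 25.4% of all genes tested, which needed a mean of only 1 normalized count in 1 group. P2ry6 was chosen for its difference. The outer 2, named after their values were seen, were Relt, a TNF receptor family gene, and Fchsd2, a gene of endocytosis, each with a log2 fold change of 0.22 (SE 0.12 for Relt and 0.09 for Fchsd2). Among these 5 genes the difference was largest at P2ry6, the gene chosen for it, and next at P2ry2.

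**Figure D4:**
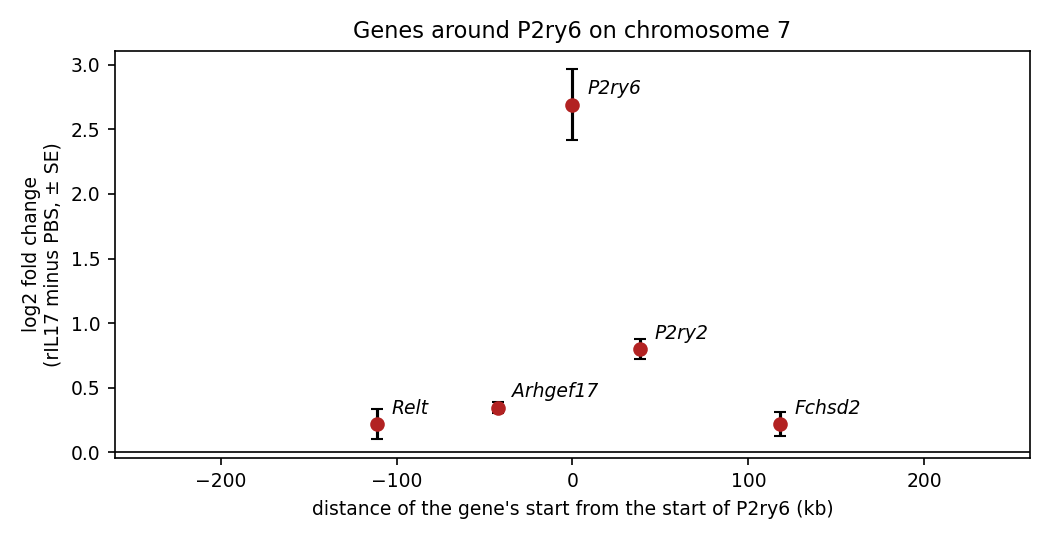
Log2 fold change of log2(normalized count + 1), rIL17 minus PBS, with SE (y axis), against the distance of each gene's start from that of P2ry6 in kb (x axis), for the 5 genes within 250 kb with a mean of at least 10 normalized counts in 1 group. P2ry6 stands at 2.69, P2ry2 at 0.80, Arhgef17 at 0.35 and Relt and Fchsd2 at 0.22.

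The 13481 other genes passing the stricter filter were compared with P2ry6 over the 4 libraries. The measure was the Euclidean distance between log2(normalized count + 1) values, each centred on its gene's mean. The nearest genes were Sycp1 (distance 0.39), a synaptonemal complex gene of meiosis, Il6 (0.63), the interleukin-6 gene, and Steap4 (0.69), a metalloreductase gene. Next came Zfp943 (0.69), a zinc-finger gene, and Prss12 (0.71), a serine protease gene. Sycp1 had 51.3 and 55.2 normalized counts in rIL17, against 8.83 and 5.97 in PBS. Il6 had 81.4 and 71.2 normalized counts in rIL17, against 8.83 and 8.95 in PBS. Sycp1, Il6 and Steap4 passed the stricter filter through the rIL17 libraries alone, since both PBS libraries lay under 10 normalized counts. A likeness over 4 libraries of 2 groups mainly reflects the size of the group difference.

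Other genes of extracellular nucleotide signalling were taken from lists of receptors, enzymes, channels, transporters and effectors, 60 genes in all. Of these, 47 were tested and 0 were called by limma over all genes, as under limma-voom and with the stricter filter, which 34 passed. At an unadjusted p below 0.05 there were 12 of the 47, 3 higher and 9 lower in rIL17, where 7.63% of all genes lay below it and higher and 5.15% lay below it and lower. The 9 lower genes included P2rx1, P2rx5 and Gna14, which had means under 10 normalized counts in both groups. Their log2 fold changes of -1.94, -1.93 and -2.05 rest on 0 to 11 reads a library. Both rIL17 libraries lay above both PBS libraries in 11 and below them in 13 of the 47, beside 25.4% and 20% of all genes. The median log2 fold change of the 47 was -0.06, and that of all genes tested was 0.01.

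Among adenosine receptor genes, 3 of 4 were tested, and Adora1, encoding the A1 receptor, had 117 and 124 normalized counts in rIL17, against 101 and 94.5 in PBS (log2 fold change 0.30, SE 0.11, limma adjusted p = 0.415). Of the other P2Y receptor genes 1 of 4 was tested, and it had a mean under 10 normalized counts in both groups. All 5 of the other P2X genes were tested. The most abundant was P2rx3, encoding a channel best known from sensory neurons, with 188 and 219 normalized counts in rIL17, against 181 and 216 in PBS (log2 fold change 0.04, SE 0.15). P2rx2 and P2rx6 were scarce, with 5.03 and 14.04 normalized counts of P2rx2 in rIL17, against 25.5 and 14.9 in PBS, and 9.05 and 2.01 of P2rx6 in rIL17, against 14.7 and 7.96 in PBS. Their log2 fold changes of -1.11 each had SEs of 0.61 and 0.77. Both genes reached a mean of 10 normalized counts in PBS alone.

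Of the other ecto-nucleotidase genes 8 of 9 were tested. Alpl, encoding tissue-nonspecific alkaline phosphatase, which also removes phosphate from nucleotides, was the most abundant, with 1532 and 1667 normalized counts in rIL17, against 1775 and 1807 in PBS (log2 fold change -0.16, SE 0.06). Cd38, encoding an NAD-consuming ectoenzyme, had 336 and 313 in rIL17, against 275 and 256 in PBS (log2 fold change 0.29, SE 0.09). Enpp1, encoding an enzyme that hydrolyses ATP to AMP and pyrophosphate, had 109.6 and 127 in rIL17, against 77.5 and 104 in PBS (log2 fold change 0.39, SE 0.21). The limma adjusted p-values of these 3 genes were 0.411, 0.373 and 0.507. The intracellular NTPDase genes Entpd5, Entpd6 and Entpd7 had overlapping groups and log2 fold changes of 0.06, -0.08 and -0.07.

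Among genes of nucleotide release, 6 of 7 were tested. Ank, encoding a transporter that moves ATP and citrate out of cells, was the most abundant per kb, with 12493 and 12556 normalized counts in rIL17, against 13704 and 13994 in PBS (log2 fold change -0.14, SE 0.04). The hemichannel genes differed in direction: Panx1, encoding pannexin-1, had 236 and 237 in rIL17, against 274 and 313 in PBS (log2 fold change -0.31, SE 0.10), and Gja1, encoding connexin 43, had 5035 and 4531 in rIL17, against 4146 and 3438 in PBS (log2 fold change 0.34, SE 0.12). Panx2 had 18.1 and 25.1 in rIL17, against 30.4 and 25.9 in PBS (log2 fold change -0.38, SE 0.27). Their limma adjusted p-values ran from 0.373 to 0.597.

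Of the genes that take up or break down adenosine, 6 of 10 were tested. Slc29a1, encoding the equilibrative nucleoside transporter ENT1, had 2516 and 2766 normalized counts in rIL17, against 3012 and 3152 in PBS (log2 fold change -0.22, SE 0.07). Pnp, encoding purine nucleoside phosphorylase, had 518 and 504 in rIL17, against 419.9 and 449 in PBS (log2 fold change 0.23, SE 0.07). Slc29a2, encoding a related transporter, had a log2 fold change of -0.17 (SE 0.12). The limma adjusted p-values were 0.373, 0.373 and 0.582.

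P2Y2 and P2Y6 signal through Gq to phospholipase C and calcium release, and 9 of 11 genes of that route were tested. Itpr3, encoding an inositol trisphosphate receptor, was the most abundant per kb, with 6182 and 6347 normalized counts in rIL17, against 6201 and 6270 in PBS (log2 fold change 0.01, SE 0.04). Gna11, encoding a Gq-family subunit, had a log2 fold change of -0.10 (SE 0.10), Itpr1 one of -0.17 (SE 0.05) and Plcb4, a phospholipase C gene, one of -0.34 (SE 0.11), with limma adjusted p-values from 0.373 to 0.680.

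Among the 6 genes downstream of P2X7 in the inflammasome, all were tested. The rIL17 libraries lay above the PBS libraries in 4, below in 1 and overlapped them in 1, beside 25.4% above and 20% below among all genes. Il1b, encoding interleukin-1 beta, had 28.1 and 16.0 normalized counts in rIL17, against 6.87 and 9.94 in PBS (log2 fold change 1.26, SE 0.42). These values rest on 28 and 16 reads in rIL17 and 7 and 10 in PBS. Its mean reached 10 normalized counts in rIL17 alone. Il18, encoding interleukin-18, had 26.1 and 32.1 in rIL17, against 21.6 and 16.9 in PBS (log2 fold change 0.58, SE 0.26). Casp1, encoding the protease that processes both cytokines, had 576 and 532 in rIL17, against 466 and 346 in PBS (log2 fold change 0.46, SE 0.17). Gsdmd, encoding the pore-forming protein gasdermin D, was the most abundant per kb and lower, with 1109 and 1077 in rIL17, against 1204 and 1328 in PBS (log2 fold change -0.21, SE 0.07). The limma adjusted p-values of these 4 genes ran from 0.375 to 0.453.

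**Figure D5:**
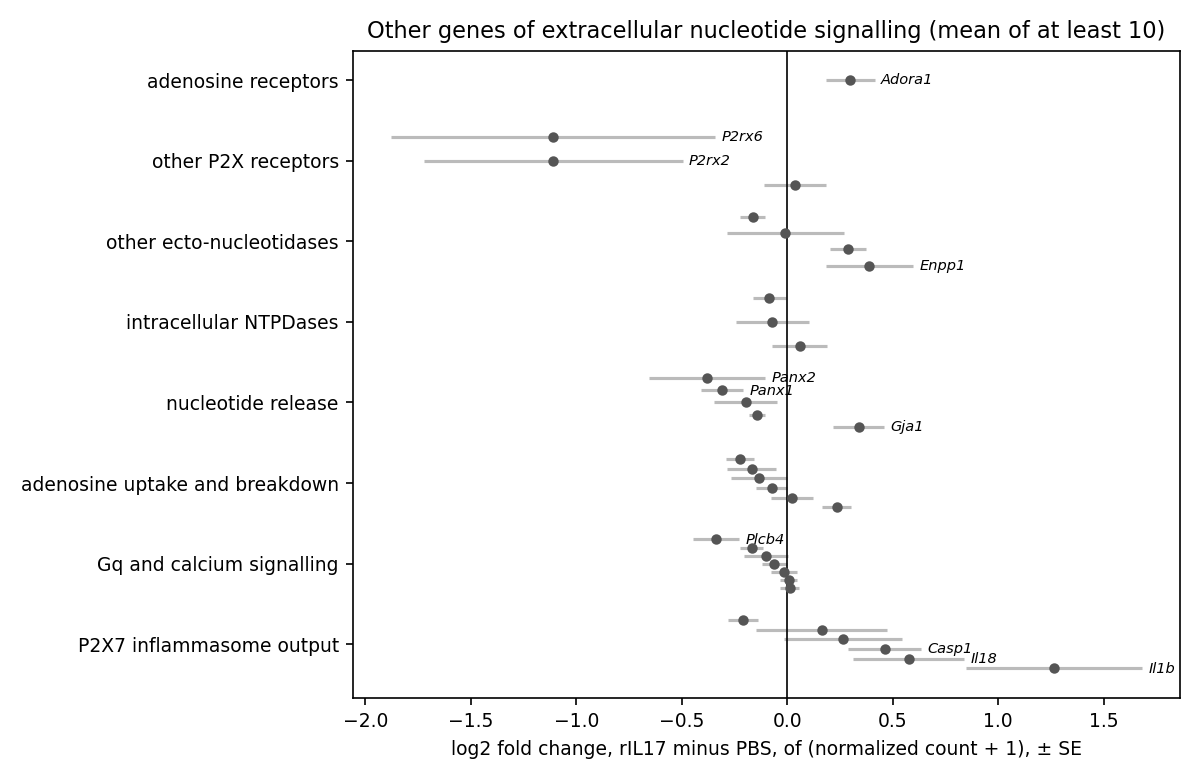
Log2 fold change of log2(normalized count + 1), rIL17 minus PBS, with SE (x axis), for the other genes of extracellular nucleotide signalling with a mean of at least 10 normalized counts in 1 group, by list (y axis); labels mark genes more than 0.29 from 0. These 35 genes run from -1.11 for P2rx2 and P2rx6 to 1.26 for Il1b, with a median of -0.06. Il1b reached the mean of 10 through rIL17 alone, and P2rx2 and P2rx6 through PBS alone.

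Since P2ry6 and P2rx7 are also genes of macrophages, markers of other cell types were summed. In bulk RNA, fewer cells of a type and less RNA per cell cannot be told apart. Of 12 macrophage markers 8 had values, and their sums ran from 982 to 1057 normalized counts in rIL17 and from 949.7 to 987 in PBS, nearly all of it from Cd14 and Cd68. The other 6 summed to 33.2 and 25.1 in rIL17, and to 24.5 and 25.9 in PBS. Among them Lyz2 had 11.06 and 2.01 normalized counts in rIL17, against 2.94 and 0.99 in PBS. Ptprc, the pan-leukocyte gene, had 3.02 and 2.01 normalized counts in rIL17 and 0 in both PBS libraries. Cx3cr1 went the other way, with 1.01 and 0 in rIL17, against 3.92 and 3.98 in PBS. Of the 8 macrophage markers, 2 (Ptprc and Mrc1) had both rIL17 libraries above both PBS libraries, 1 (Cx3cr1) had both below, and 5 overlapped. Among all genes, 25.4% lay above and 20% below in this way. Ptprc and Cx3cr1 rest on 0 to 4 reads a library. Of 8 lymphocyte markers only Cd79a had values, at 0 to 2.01. The 5 fibroblast and endothelial markers with values, of 7, summed to 82.2 to 95.5 in rIL17 and 61.7 to 70.6 in PBS. The higher sum in rIL17 came from Dcn, with 62.3 and 46.1 in rIL17, against 26.5 and 17.9 in PBS, whereas Pdgfrb was lower, with 24.1 and 26.1 in rIL17, against 36.3 and 33.8 in PBS, and the other 3 overlapped. The part of these markers in the values of P2ry6 was not tested. The epithelial markers were present in all 7 cases, and their sums were lower in rIL17, at 43274 to 45201 normalized counts, than in PBS, at 50933 to 54832. Nearly all of these sums came from Krt8 and Krt18. Of the 7 epithelial markers, Cdh1, Krt8, Krt18, Cldn4 and Cldn7 had both rIL17 libraries below both PBS libraries, beside 20% of all genes. The limma adjusted p-values of these 5 ran from 0.370 to 0.843. Krt19 and Epcam overlapped. Epcam had 114 and 88.3 normalized counts in rIL17, against 135 and 76.6 in PBS.

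The first principal component of the genes passing the stricter filter held 68.8% of the variance. On it PBS replicate 2 lay at -40.8 and PBS replicate 1 at -7.5, against 27.3 and 21.1 for the rIL17 libraries. PBS replicate 1 lay about as far from PBS replicate 2 as from the rIL17 libraries. The transcripts of P2ry6 and P2ry2 have a GC content of 55.9% and 56.5%, those of P2rx7, P2rx4 and Nt5e 50.1%, 48.3% and 48%. Without PBS replicate 2 the log2 fold change was 2.58 for P2ry6, 0.80 for P2ry2 and -0.65 for P2rx7. With each library corrected for transcript GC content it was 2.83 for P2ry6, 0.94 for P2ry2, -0.46 for P2rx7, -0.06 for P2rx4 and 0.18 for Nt5e.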

How the data were processed

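RNA from 4T1 cells was sequenced from directional total RNA libraries, per the labels' protocols. CASAVA, HISAT2 2.0.5, featureCounts 1.5.0-p3 and the build mm10 are named in the submitters' processing notes; of the gene annotation used for counting, the strandedness option and the origin of the size factors, the sources used here state nothing. The deposited values are a normalized signal: 100.0% lay within 0.001 of a whole multiple of 1 step per library, so they are read counts divided by a size factor. The count tests edgeR and DESeq2 were not used on them. Limma-voom, run as an alternative, took these normalized values in place of raw counts. Genes were tested where either group averaged 1 normalized count or more, on log2(normalized count + 1) with limma 3.58.1 (R 4.3.3), a mean-variance trend, no term but treatment, and Benjamini-Hochberg adjustment over all genes tested. Genes were called at an adjusted p below 0.05. The log2 scale with a pseudocount of 1 understates the change of low genes. Symbols, lengths, GC content and positions are those of GENCODE M21 (mm10), matched for 21819 of 21840 rows. Replicates differed by more than sampling noise, with a mean chi-square per gene of 4.01 between the rIL17 and 15.59 between the PBS libraries, and all 4 were kept. The 8 genes and the lists were chosen with earlier results of these data known. Besides the 8, the text names up to 3 genes per list with the largest change at a mean of at least 10 normalized counts, the most abundant per kb, the 5 nearest in pattern to P2ry6, its neighbours, overlapping genes, Ptprc and Epcam. The other cell type markers, other than Ptprc and Epcam, were named after their values were seen. So were P2rx1, P2rx5 and Gna14. Reads without molecular identifiers are not independent molecules, so the floor of 3 reads covers counting error only.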

Additional observations from a re-analysis of the deposited data

How the results depend on the processing

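Over all genes, limma called 0, and 0 also without a filter, with a pseudocount of 0.1, with upper-quartile scaling, with the replicate number as a block and without any 1 of the 4 libraries. It called 99 with the stricter filter, 268 with robust shrinkage, 78 with the GC correction, 498 with the GC correction and the replicate block together, and 151 with the stricter filter and robust shrinkage, a setting chosen after seeing the data. Limma-voom called 1. Of the 6 measured genes, 0 were called with the settings described above. With the stricter filter, which 5 of them passed, and with the GC correction, 1 (P2ry6) was called. With robust shrinkage, with the block and GC correction together, and with the stricter filter and robust shrinkage, 2 (P2ry6 and P2ry2) were called. Of the other nucleotide genes, 1 (Adk) was called with the block and GC correction together, and 0 under the other settings. Under the stricter filter, leaving out 1 library gave 0 to 1746 calls over all genes and 0 to 2 among the 8 genes, with 0 of both without rIL17 replicate 1 or without rIL17 replicate 2 and the highest counts without PBS replicate 1; a group of 1 library is then assumed to vary like the other group. The causes were not tested. The log2 fold changes of the 5 genes above the floor kept their sign under all 14 alternatives run, but for most alternatives this was fixed in advance. The filters, robust shrinkage and the replicate block alone leave the fold change itself unaltered. Leaving out 1 library cannot turn the sign where the groups do not overlap, as in these 5 genes. For P2ry6 they ran from 2.40 to 2.98. With the replicate block P2ry6 had 2.69 (SE 0.30). The numbers do not pair the samples by the labels, and the deviations of same-numbered libraries correlated at 0.12. The planned edgeR and DESeq2 alternatives were not run. Depth limits P2ry14, at 0 to 2 reads a library, and the PBS level of P2ry6, at 19 and 16 reads.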
